A study of Capsicum annuum with 6 samples.

Results

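The 8 genes described here are listed by neighbouring identifiers on 2 pepper chromosomes. Of them, 5 belong to chromosome 6 (Capann_59Chr06g016150, Capann_59Chr06g016200, Capann_59Chr06g016210, Capann_59Chr06g016220 and Capann_59Chr06g016230) and 3 to chromosome 7 (Capann_59Chr07g019510, Capann_59Chr07g019520 and Capann_59Chr07g019530), out of 24829 genes measured in all. They were selected by the study, under the heading of calcium-mediated signaling, from genes whose transcript level differed between the same 6 libraries. The level of each member in compact accession B010 and loose accession B003 is therefore given as a description, without p-values or calls. Transcripts were measured by RNA-seq of polyA RNA from first branch sites, the forks of the main stem, at early flowering. Accession B010, with a small branch angle, and accession B003, with a large one, each have 3 libraries, with tissue of 8 plants pooled per library. Each group is 1 accession, so that branch angle and the other differences between the accessions cannot be told apart.

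Calcium ions act as a second messenger in plant cells. A stimulus such as touch, gravity, wounding or a hormone raises the free calcium of the cytosol, and calcium-binding sensor proteins pass the signal on to kinases, transcription factors and transporters. In many plant families, genes of such sensors and of other signaling proteins occur as tandem copies that lie side by side. The sources used here pair none of the 8 identifiers with a protein name, so the members are called by identifier, and no role beyond the heading is given to any of them. For the same reason, the branch tissue was not checked against marker genes. In tissue of mixed cells, fewer cells of a type and less RNA per cell cannot be told apart.

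All 8 members passed the expression filter, with 11 to 9719 counts per library. The lowest count, 11 for Capann_59Chr06g016200 in B003 replicate 3, has an exact 95% Poisson interval of 5.49 to 19.7 counts, which covers counting error only. The library totals on genes were between 29891192 and 47659515. Replicates of an accession were not equally alike. Over all 24738 genes tested, the log2 CPM (CPM, the counts of a gene relative to the TMM-scaled library total) of B010 replicate 3 lay at least 1 below the mean of the other B010 replicates in 9.86% of genes. Among the 3967 genes whose fitted level was at least 2-fold higher in B010, the share was 39.2% for this library, against 1.24% for replicate 1 and 2.34% for replicate 2. In the same genes, replicate 2 lay at least 1 above the mean of the other B010 replicates in 30.02%, replicate 1 in 9.05% and replicate 3 in 2.24%. By a chi-square of the counts per degree of freedom, B010 replicate 3 was at 138 and 215 from replicates 1 and 2, which were at 44.4 from each other. In B003, replicate 1 was at 209 and 238 from replicates 2 and 3, which were at 28.7 from each other.

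Genes were compared with each other on the deposited FPKM scale, that is, per exon length. Dividing the counts by the FPKM gave nearly the same length for a gene in every library, with a median coefficient of variation of 0.0320% over 13782 genes. Relative to the median gene, the length of the chromosome 6 members was 1.67 to 2.32. On chromosome 7, Capann_59Chr07g019520 and Capann_59Chr07g019530 had relative lengths of 2.21 and 1.99, whereas Capann_59Chr07g019510 was short, at 0.429. A count of Capann_59Chr07g019510 therefore stands for a higher level per length than the same count of its neighbours. How reads that align to several places were treated is not given in the sources used here, and the levels of members are uncertain where they share near-identical sequence.

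In B010, each chromosome 7 member had a higher mean FPKM than any chromosome 6 member. In B003 this held for Capann_59Chr07g019530, while Capann_59Chr07g019520 and Capann_59Chr07g019510 lay below Capann_59Chr06g016150. Capann_59Chr07g019530 had 51.9, 44.8 and 42.8 FPKM in B010 replicates 1, 2 and 3, against 21.4, 22.6 and 20.2 FPKM in B003. The accessions did not overlap, and the libraries of each lay close together. Its mean was 46.5 ± 4.74 FPKM over the B010 libraries and 21.4 ± 1.18 FPKM in B003 (SD, n = 3 each), a ratio of 2.17, and the fitted log2 fold change of B010 over B003 was 1.11 (standard error, SE, 0.16), or 1.23 without B010 replicate 3.

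Capann_59Chr07g019520 had 46.4, 43.4 and 9.84 FPKM in the B010 libraries and 10.2, 4.10 and 3.11 FPKM in B003. Replicates 1 and 2 of B010 were close to Capann_59Chr07g019530, but replicate 3 of B010 lay just below B003 replicate 1, so that the accessions overlapped. The fitted log2 fold change was 2.59 (SE 0.75), and without B010 replicate 3 it was 3.04. Without B003 replicate 1, the highest library of that accession, it was 3.19, a change of over 1.5-fold.

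Capann_59Chr07g019510 had 30.8, 29.0 and 5.22 FPKM in the B010 libraries and 3.45, 2.1 and 1.60 FPKM in B003. All B010 libraries were above those of B003, although replicate 3 stood far below replicates 1 and 2. The fitted log2 fold change was 3.23 (SE 0.76) and 3.71 without B010 replicate 3. Among the chromosome 7 members, the gene with the lowest level had the largest fitted fold change, and the gene with the highest level had the smallest. With each library left out in turn, the value was 2.89 to 3.71 for Capann_59Chr07g019510 and 2.27 to 3.19 for Capann_59Chr07g019520. These ranges overlapped, but in each of these fits Capann_59Chr07g019510 had the larger value. The values were closest without B003 replicate 1, at 3.53 against 3.19. The SEs of 0.76 and 0.75 were wide beside the fitted values of 3.23 and 2.59, so the order is only described.

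On chromosome 6, Capann_59Chr06g016150 was the one member with a higher level in B003. It had 2.84, 1.70 and 2.27 FPKM in the B010 libraries and 7.91, 7.69 and 8.14 FPKM in B003. The accessions did not overlap, and the B003 libraries differed little. The mean was 2.27 ± 0.565 FPKM over the B010 libraries and 7.91 ± 0.222 FPKM in B003 (SD, n = 3 each), with a fitted log2 fold change of -1.82 (SE 0.19) and -1.76 without B010 replicate 3. By number, 4 identifiers lie between this gene and the remaining 4, and none of them is among the 24829 genes measured.

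The 4 members with consecutive identifiers were all higher on average in B010. Capann_59Chr06g016200 had 2.25, 3.39 and 0.468 FPKM in the B010 libraries and 0.139, 0.289 and 0.0871 FPKM in B003. It did not overlap between accessions and had the largest fitted log2 fold change of the 8 members, 3.59 (SE 0.89). This rank is not settled, since without B003 replicate 1 the value was 3.40, below the 3.53 of Capann_59Chr07g019510. By limma on log2(FPKM + 0.1) it was 2.69 against 2.83. The size of the fitted value varied with single libraries, at 2.92 without B010 replicate 2, 4.21 without B003 replicate 2 and 4.07 without B010 replicate 3. With each library left out in turn, it stayed within 2.92 to 4.21. In counts, the B010 libraries had 396, 383 and 53 and the B003 libraries 19, 35 and 11.

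Capann_59Chr06g016210 had 2.11, 1.83 and 1.47 FPKM in the B010 libraries and 1.03, 0.619 and 0.834 FPKM in B003. The libraries of the accessions were close but did not overlap. Its fitted log2 fold change of 1.13 (SE 0.27) was the smallest of the 4. It was 1.31 without B010 replicate 3 and 0.98 without B003 replicate 2.

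Capann_59Chr06g016220 had 2.76, 2.91 and 0.712 FPKM in the B010 libraries and 0.221, 0.590 and 0.805 FPKM in B003. Replicate 3 of B010 was below replicate 3 of B003, so that the accessions overlapped. The fitted log2 fold change was 2.00 (SE 0.74). It was 2.44 without B010 replicate 3 and 1.60 without B003 replicate 1, the lowest library of that accession.

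Capann_59Chr06g016230 had 2.86, 2.61 and 2.35 FPKM in the B010 libraries and 0.265, 0.524 and 0.805 FPKM in B003. The accessions did not overlap. In log2 CPM its B010 libraries were steady and the spread lay mainly within B003, with SDs of 0.26 and 0.86. In FPKM the SDs were alike, at 0.255 in B010 and 0.270 in B003. The fitted log2 fold change was 2.26 (SE 0.44). It was 2.39 without B010 replicate 3 and 1.91 without B003 replicate 1.

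**Figure D1:**
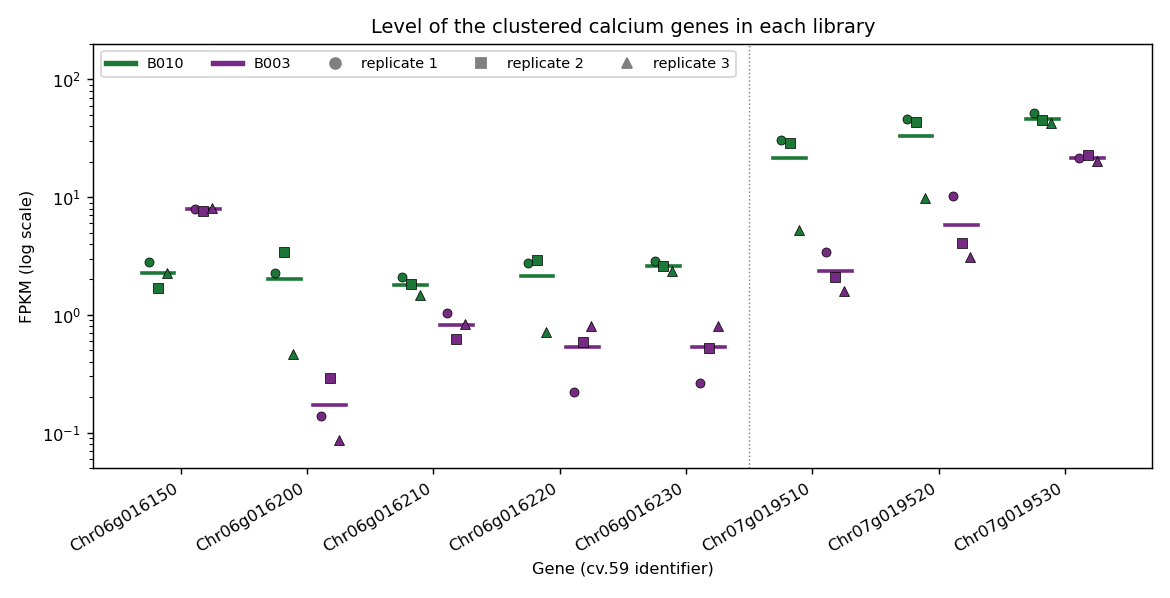
FPKM on a log scale of each member in each library, with B010 left of B003; marker shapes give the replicate and bars the mean of the 3 libraries. Capann_59Chr06g016150 is the one gene with its B003 libraries on top, and replicate 3 of B010 falls below replicates 1 and 2 by the widest margin in Capann_59Chr06g016200, Capann_59Chr06g016220, Capann_59Chr07g019510 and Capann_59Chr07g019520.

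On average, 7 of the 8 members were higher in B010 and 1 was higher in B003. All B010 libraries lay above all B003 libraries in 5 of them, and all B003 libraries lay above in 1. Over all genes tested, these shares were 26.7% and 27.6%. The members were chosen on this difference, so nothing is read from their counts. The median log2 fold change of the members was 2.13, beside 0.01 for all genes tested.

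Gene against gene, the clusters were ordered differently. On chromosome 7 the order by FPKM was the same in all 6 libraries, with Capann_59Chr07g019530 first, Capann_59Chr07g019520 second and Capann_59Chr07g019510 last. By CPM, which does not take length into account, the first and second places were exchanged in B010 replicate 2 alone. In B010 replicates 1 and 2 the lead of Capann_59Chr07g019530 was slight, since Capann_59Chr07g019520 reached 0.895 and 0.968 of its FPKM. The same ratio was 0.230 in B010 replicate 3 and 0.478, 0.181 and 0.154 in B003. These neighbours in the order thus did not differ beyond the spread of the libraries in B010, but did in B003.

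The ratio of Capann_59Chr07g019510 to Capann_59Chr07g019520 ran over a narrower range. It was 0.664, 0.669 and 0.530 in B010 and 0.338, 0.511 and 0.514 in B003. All B010 libraries lay above all B003 libraries in this ratio, but only just, at 0.530 in B010 replicate 3 against 0.514 in B003 replicate 3. The counts of Capann_59Chr07g019510 in these libraries were 135 and 44, so the ratio is not read as a difference between the accessions. Over the same libraries the FPKM of either gene ran over a more than 10-fold range. Capann_59Chr07g019530 did not follow them in B010 replicate 3, where it made up 74.0% of the summed FPKM of the 3 genes, against 40.2% and 38.2% in replicates 1 and 2. In B003 its share was 61.0%, 78.5% and 81.1%. The sum itself was 129, 117 and 57.9 FPKM in the B010 libraries and 35.02, 28.8 and 24.96 FPKM in those of B003. The accessions did not overlap, at 101 ± 38.2 FPKM over the B010 libraries and 29.6 ± 5.08 FPKM in B003 (SD, n = 3 each), and the B010 mean was 123 FPKM without replicate 3.

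On chromosome 6 the order depended on the accession. In B010, Capann_59Chr06g016150 held 22.1%, 13.7% and 31.2% of the summed FPKM of the 5 members and ranked 2, 5 and 2. In B003 its share was 82.7%, 79.2% and 76.3%, and it was first in every library. Capann_59Chr06g016230 was first in B010 replicates 1 and 3 and Capann_59Chr06g016200 in replicate 2. In B010 replicates 1 and 2, all 5 members lay between 1.70 and 3.39 FPKM, so the order there does not separate them beyond the spread of the libraries.

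In B003, Capann_59Chr06g016200 was last in every library, with at most 2.97% of the sum. The summed FPKM of the cluster was 10.8 ± 3.10 in B010 and 9.98 ± 0.597 in B003 (SD, n = 3 each). Replicate 3 was the low B010 library, at 7.27 FPKM against 12.8 and 12.5 FPKM in replicates 1 and 2, and the B010 mean without it was 12.6 FPKM. With all libraries the sums overlapped between the accessions, while the share of each of the 5 members did not. The members were chosen on this contrast, and shares of the same sum are tied to each other, so nothing is read from that count. Capann_59Chr06g016150 was 0.654 to 0.991 times as high as Capann_59Chr06g016230 in the B010 libraries and 10.1 to 29.8 times as high in those of B003.

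**Figure D2:**
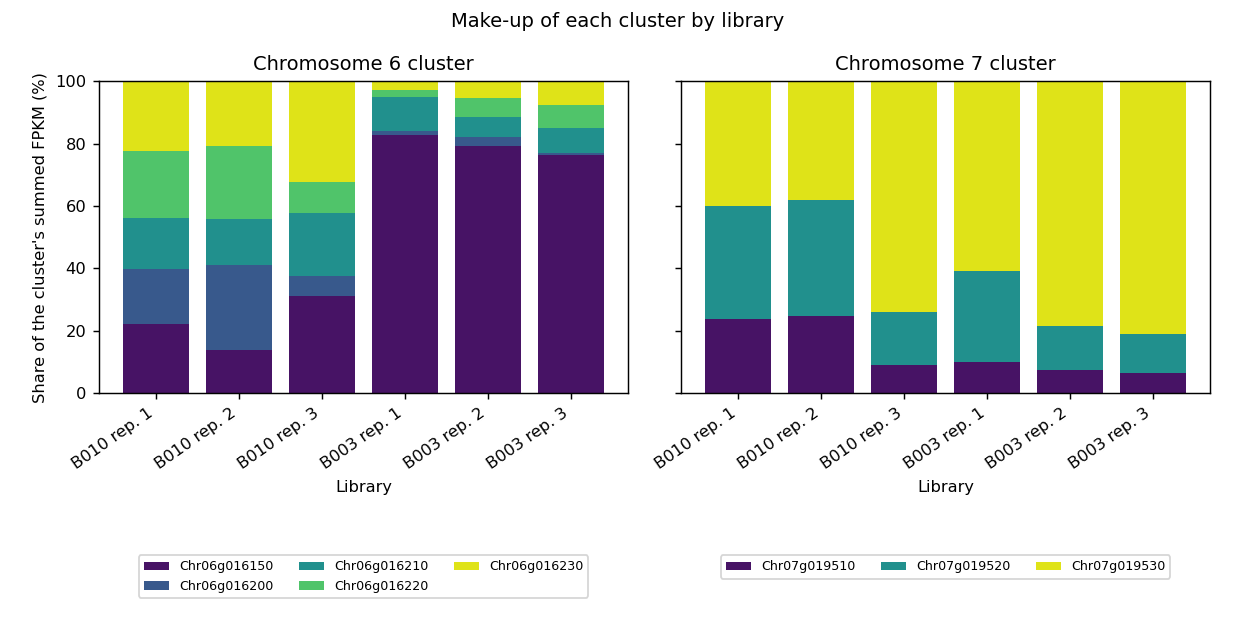
Share of each member in the summed FPKM of its cluster, in percent, one bar per library, B010 left of B003. Capann_59Chr06g016150 takes 13.7% to 31.2% of the chromosome 6 bars in B010 and 76.3% to 82.7% in B003, and Capann_59Chr07g019530 takes most of the chromosome 7 bar in every library except B010 replicates 1 and 2.

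Pairs within the chromosome 6 cluster moved together to different degrees. Capann_59Chr06g016220 stood at 0.964, 1.12 and 0.303 times the FPKM of Capann_59Chr06g016230 in the B010 libraries, with replicate 3 set apart, and at 0.833, 1.13 and 1.00 times in those of B003. Capann_59Chr06g016210 was 0.627 to 0.737 times as high as Capann_59Chr06g016230 in B010 and 1.04 to 3.90 times as high in B003. Capann_59Chr06g016200 and Capann_59Chr06g016220 shared the fall in B010 replicate 3, with ratios of 0.817, 1.17 and 0.657 in the B010 libraries, but not the order in B003, where the ratio was 0.627, 0.489 and 0.108.

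In B010, the spread between replicates divided the members into steady and variable ones. The spread is the SD of log2 CPM over the 3 libraries of an accession, whose median over all genes tested was 0.23 in B010 and 0.26 in B003. In B010, Capann_59Chr06g016200, Capann_59Chr07g019510, Capann_59Chr07g019520 and Capann_59Chr06g016220 had SDs of 1.64, 1.58, 1.40 and 1.28. For each of these 4 genes, between 95.6% and 97.7% of all genes tested had a lower SD in B010. The other 4 members had SDs of 0.24 to 0.37 in B010, above those of 51.7% to 68.6% of all genes tested. Members steady and variable in B010 lay side by side on both chromosomes.

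Each of the 4 genes variable in B010 owed its spread in B010 mainly to replicate 3. Against the mean of replicates 1 and 2, replicate 3 was lower by a log2 CPM difference of -2.76 in Capann_59Chr06g016200, -2.74 in Capann_59Chr07g019510, -2.42 in Capann_59Chr07g019520 and -2.21 in Capann_59Chr06g016220. In the other members the difference was between -0.64 and -0.19. A difference of -2 or below was found in 4 of the 8 members, in 3.84% of all genes tested and in 18.1% of the genes at least 2-fold higher in B010. What sets this library apart was not tested.

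In B003 the members divided differently. The SDs of Capann_59Chr06g016220, Capann_59Chr06g016230, Capann_59Chr06g016200 and Capann_59Chr07g019520 were 1.03, 0.86, 0.82 and 0.81, above those of 88.9% to 92.6% of all genes tested. Among genes with a mean log2 CPM within 1 of theirs, the shares were 91.8%, 89.6%, 83.2% and 94.1% in the same order. Capann_59Chr06g016230 was thus variable in B003 although steady in B010. Capann_59Chr07g019510 and Capann_59Chr06g016210 had SDs of 0.47 and 0.29. Replicate 1 of B003 was below the mean of the other B003 replicates by a log2 CPM difference of -1.74 in Capann_59Chr06g016220 and -1.40 in Capann_59Chr06g016230. The same replicate was above them by 1.37 in Capann_59Chr07g019520 and 0.75 in Capann_59Chr07g019510. Capann_59Chr06g016200 was highest in B003 replicate 2. The clusters therefore did not vary in step among the B003 libraries. The steadiest members in B003 were Capann_59Chr06g016150 and Capann_59Chr07g019530, with SDs of 0.09 and 0.12.

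**Figure D3:**
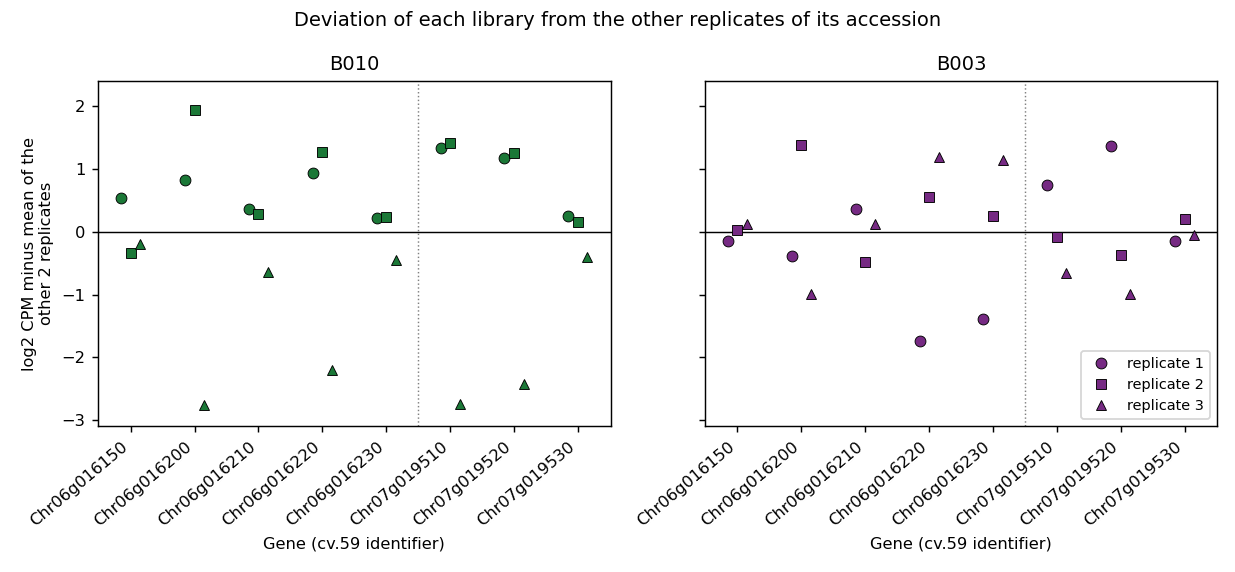
Log2 CPM of each library minus the mean of the other 2 libraries of its accession, for the 8 members, B010 in the left panel and B003 in the right; marker shapes give the replicate. Replicate 3 of B010 lies below -2 in 4 members. In B003, replicate 1 lies lowest in Capann_59Chr06g016220 and Capann_59Chr06g016230 and highest in Capann_59Chr07g019520, while replicate 2 lies highest in Capann_59Chr06g016200.

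The genes beside the members were taken by identifier, not by value, so their difference between accessions was tested. Of the identifiers within 10 steps outside either cluster, 23 are listed, 15 on chromosome 6 and 8 on chromosome 7, and all 23 were tested with edgeR's quasi-likelihood test over all 24738 genes. Of these, 6 passed the thresholds (adjusted p up to 0.05, fold change 2 or more either way), or 26.1%, near the 25.3% of all genes. As higher in B010, 1 passed, beside 12.5% of all genes, and as higher in B003, 5 passed, beside 12.8% of all genes. Without B003 replicate 2, 3 neighbours were called, all of them higher in B003, and 4294 of the 24804 genes tested, or 17.3%, were called in that fit. The median log2 fold change of the 23 neighbours was -0.50, and 16 had a negative value, or 69.6%, beside 49.6% of all genes tested.

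On chromosome 6, 2 of the 15 neighbours passed. Capann_59Chr06g016140, which directly precedes Capann_59Chr06g016150, had 3.11, 2.94 and 3.71 FPKM in the B010 libraries and 6.34, 7.28 and 6.67 FPKM in B003. Its log2 fold change was -1.08 (SE 0.14, edgeR adjusted p = 0.00320), in the same direction as that of Capann_59Chr06g016150, although without B003 replicate 2 it missed the fold limit at -0.997 (edgeR adjusted p = 0.0153). By limma on log2(FPKM + 1) it also missed the limit, at -0.87 (limma adjusted p = 0.00775). This left 5 neighbours called, beside 19.4% of all genes tested in that fit. Capann_59Chr06g016270 had 9.37, 6.89 and 8.93 FPKM in the B010 libraries and 20.8, 25.4 and 20.9 FPKM in those of B003, at a log2 fold change of -1.44 (SE 0.16, edgeR adjusted p = 0.00251).

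On the other side, Capann_59Chr06g016240 directly follows Capann_59Chr06g016230. It had 3.93, 3.29 and 5.51 FPKM in the B010 libraries and 7.05, 4.54 and 3.95 FPKM in B003. The libraries overlapped, and the log2 fold change of -0.31 (SE 0.22) did not pass (edgeR adjusted p = 0.303). The other 12 chromosome 6 neighbours had log2 fold changes from -1.57 to 0.57 and did not pass. The lowest of these values belonged to Capann_59Chr06g016330, whose libraries overlapped at 0.695 ± 0.647 FPKM over the B010 libraries and 2.13 ± 1.76 FPKM in B003 (SD, n = 3 each).

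On chromosome 7, 4 of the 8 neighbours passed. The nearest listed gene before the cluster was Capann_59Chr07g019490, at 14.4, 9.51 and 22.5 FPKM in the B010 libraries and 31.1, 35.1 and 45.6 FPKM in those of B003. Its log2 fold change was -1.33 (SE 0.29, edgeR adjusted p = 0.0170), against the direction of the members. Farther off, Capann_59Chr07g019450 and Capann_59Chr07g019440 were also higher in B003, with log2 fold changes of -1.67 (SE 0.13, edgeR adjusted p = 0.00105) and -3.33 (SE 0.37, edgeR adjusted p = 0.00239).

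Capann_59Chr07g019440 had 0.237, 0.255 and 0.623 FPKM in the B010 libraries and 4.63, 3.21 and 3.25 FPKM in B003. On the opposite side, the nearest listed gene was Capann_59Chr07g019550, 2 identifiers after the last member. It had 7.66, 10.6 and 1.96 FPKM in the B010 libraries and 0.712, 0.877 and 0.562 FPKM in B003. Its log2 fold change was 3.27 (SE 0.70, edgeR adjusted p = 0.0160). This was the 1 neighbour called as higher in B010, and its B010 replicate 3 was low, with a log2 CPM difference of -2.41 from replicates 1 and 2. Without this library its log2 fold change was 3.72 (edgeR adjusted p = 0.00219).

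The calls of Capann_59Chr07g019490 and Capann_59Chr07g019550 were lost without B010 replicate 1, without B003 replicate 2 and without B003 replicate 3, with edgeR adjusted p of 0.0527 to 0.0715. The fold changes stayed about as large, at -1.28, -1.35 and -1.14 for Capann_59Chr07g019490 and 3.22, 3.47 and 3.14 for Capann_59Chr07g019550 in these 3 fits. Over all genes tested, the same fits called 14.6%, 17.3% and 16.6%, against 25.3% with all libraries. The remaining 4 neighbours on this side had log2 fold changes from -0.88 to -0.08. Of them, Capann_59Chr07g019580 had an edgeR adjusted p of 0.0207 but missed the fold limit at -0.88.

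**Figure D4:**
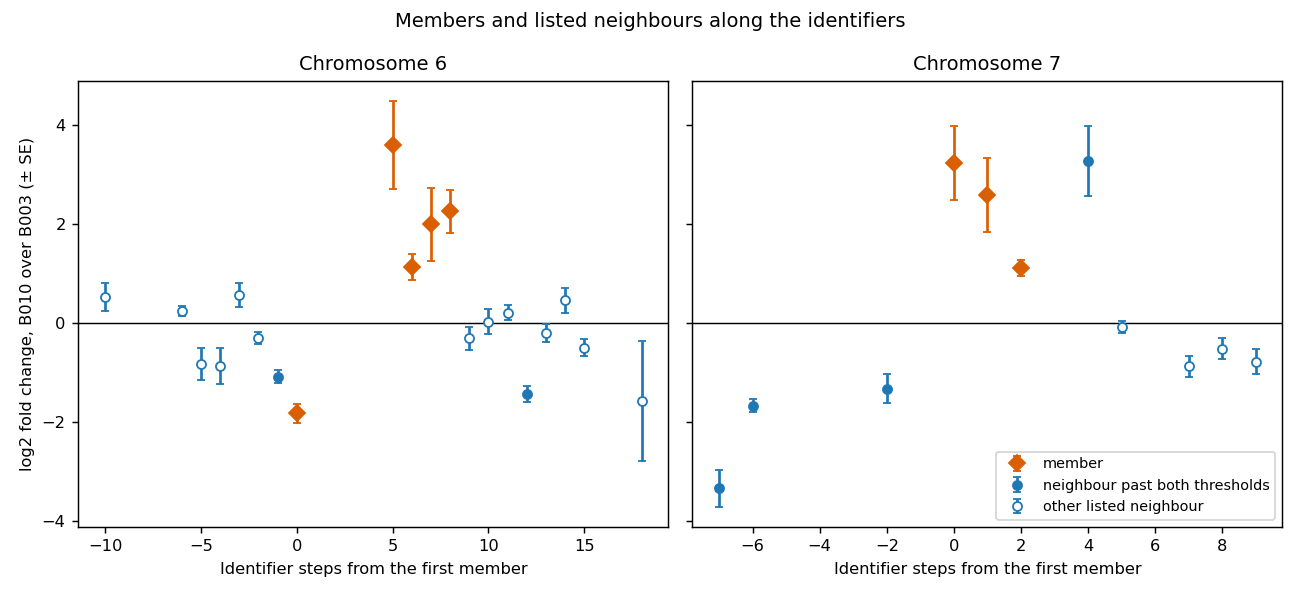
Fitted log2 fold change of B010 over B003 with its standard error for members (diamonds) and listed neighbours (circles, filled where past both thresholds), against the number of identifier steps from the first member of the cluster. The 4 consecutive chromosome 6 members and the 3 chromosome 7 members lie at 1.11 to 3.59, and the filled circles lie below 0 except Capann_59Chr07g019550 at 3.27.

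As a background for genes that lie side by side, calls were counted over the whole table. Among 21538 windows of 3 consecutive listed cv.59 identifiers, all 3 genes were called higher in B010 in 172 windows, or 0.799%, and higher in B003 in 145, or 0.673%. The members had been chosen as differing and as neighbours, so the windows describe the table, and nothing is read from them about the members.

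Single genes elsewhere in the genome followed the pattern of the summed members across the 6 libraries, whatever their own level. The measure was the mean absolute difference of log2 CPM, centred per gene, over the 6 libraries and among 23922 genes with a mean of at least 1 CPM. The 4 consecutive chromosome 6 members together had 40.02, 47.5 and 17.7 CPM in B010 and 5.72, 8.47 and 10.6 CPM in B003. The nearest gene, Capann_59Chr11g030220, had 52.9, 62.1 and 22.7 CPM in B010 and 7.84, 12.1 and 12.8 CPM in B003, a mean difference of 0.06. The next was Capann_59Chr10g001540, at a mean difference of 0.09.

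For the chromosome 7 members, whose sum was 435, 433 and 193 CPM in B010 and 124, 114 and 98.3 CPM in B003, the nearest gene was Capann_59Chr05g030750. It had 2.55, 2.36 and 1.09 CPM in B010 and 0.636, 0.614 and 0.553 CPM in B003, a mean difference of 0.05 at a far lower level. The measure takes no account of counting error, which is larger at so low a level. Capann_59Chr08g013410 followed, with a mean difference of 0.07. These genes were picked for their likeness to the sums, so the shared pattern is a description.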

How the data were processed

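The deposited counts are unnormalized read numbers of each gene, made by the authors, per the paper's methods, from quality-filtered paired reads aligned to the cv.59 genome with HISAT2. The submitters' processing notes also name StringTie. The counting program and its use of strand are not given in the sources used here. The deposited FPKM divide counts by exon length and mapped reads. The log2 fold changes and p-values (with q-values) that the authors deposited hold their own comparison and were not used. Columns were mapped to accessions from the line at the top of the table and to replicates from the number in their names, and 0 columns of per-sample values were left unused.

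Counts were tested with edgeR 4.0.16 (R 4.3.3, TMM factors of 0.923 to 1.12, default expression filter, quasi-likelihood test, 24738 genes, Benjamini-Hochberg adjustment). A gene was called at an adjusted p up to 0.05 with a log2 fold change of 1 or more either way. The SE was the log2 fold change over the root of F. The test was checked on simulated data. Alternatives used DESeq2 1.42.0, limma 3.58.1, other factors, filters and fold limits, a block for the replicate number, and each library left out. Library totals were 29891192 to 47659515 counts. Libraries of an accession differed by more than sampling noise (chi-square per degree of freedom of at least 28.7). Each was made from separate pools of plants, so p-values measure the spread between pools.

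Named genes were the 8 members, the called neighbours within 10 identifier steps, the nearest listed gene on each side, and the 2 genes of most similar pattern for each cluster. Capann_59Chr06g016330 and Capann_59Chr07g019580 were named after their values were seen. The members and lists were chosen with earlier results of these data known. The reference gene table is of another assembly (UCD10Xv1.1) and matched 0 identifiers, so no names, coordinates or sequences were used.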

Additional observations from a re-analysis of the deposited data

How the results depend on the processing

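Every fitted log2 fold change of the 8 members kept its sign under the 14 alternatives tried. The members were chosen on this contrast, so nothing is read from the kept signs. Of 112 values, 108 moved by less than 1 SD between replicates of the same gene, a wide limit for the variable members. The exceptions came from limma on log2(FPKM + 1), which shrinks fold changes of low levels by construction. It gave -1.46 for Capann_59Chr06g016150, 1.24 for Capann_59Chr06g016200, 0.62 for Capann_59Chr06g016210 and 1.25 for Capann_59Chr06g016230. Under the same setting Capann_59Chr06g016220 fell from 2.00 to 0.95, which is not among the exceptions only because its SD was wide. Leaving out each library in turn gave ranges of -2.01 to -1.71, 2.92 to 4.21, 0.98 to 1.31, 1.60 to 2.44 and 1.91 to 2.70 for the chromosome 6 members in the order of their identifiers. On chromosome 7 the ranges were 2.89 to 3.71, 2.27 to 3.19 and 1.04 to 1.23.

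By limma on log2(FPKM + 1), 5 of the 23 neighbours were called, beside 4803 of all 24738 genes tested, or 19.4%. The number of called neighbours was 3 to 7, and of those higher in B003 3 to 6, when single libraries were left out, with the lowest counts without B003 replicate 2. With a limit of 2 on the log2 fold change, 2 neighbours were called, 1 of them higher in B003. Among all genes, 6260 were called, 3229 with that limit and 3615 to 6967 with single libraries left out. The lowest counts were 3615 without B010 replicate 1 and 4117 without B003 replicate 3. The causes were not tested. With the replicate number as a block, 5458 genes and the same number of neighbours, 6, were called. The deviations of libraries of the same number from their accession means correlated across genes at -0.00318, 0.0763 and 0.178 for replicates 1, 2 and 3. These were not all above 0.1, and not every library correlated best with its own number (B010 replicate 1 did so with B003 replicate 2, at 0.0861), so the numbers were not taken to pair the samples. By CPM in place of FPKM, Capann_59Chr06g016220 was above Capann_59Chr06g016230 in 4 libraries instead of 2.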
